A study of Mus musculus with 6 samples.

Results

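Translation initiation and elongation factors made up 60 of the 44200 gene models counted in mouse heart RNA. They were taken as every gene whose name begins with Eif1 to Eif6 or with Eef1 or Eef2. The rule left out 4 genes named Eif2ak, which encode kinases of eIF2, and 6 names marked -ps as pseudogenes. Hearts of male C57BL/6 mice on normal chow were compared at 22 months of age (old) and at 2 months (young), with 3 animals per age and 1 library per heart. The mice carried no labelled genetic or drug intervention, and the study asked which transcripts differ with cardiac age. Whole heart tissue was sequenced, so fewer cells of a type and less RNA per cell cannot be told apart.

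Translation starts when eIF2 carries the initiator tRNA to the small ribosomal subunit together with eIF1, eIF1A, eIF3 and eIF5, while the eIF4 factors bring in the capped mRNA. The exchange factor eIF2B reloads eIF2 with GTP, the 4E-binding proteins hold the cap-binding factor eIF4E back until mTORC1 phosphorylates them, and eIF5B joins the large subunit. In elongation eEF1A delivers aminoacyl-tRNA, the eEF1B subunits recharge it, and eEF2 moves the ribosome along the mRNA. Adult heart and skeletal muscle are known for the use of eEF1A2, a second form of eEF1A.

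RefSeq promoter windows (GRCm38.p6, 250 bases before to 50 after the start) were found for 46 of the 60 members, and short stretches of them are shown for members described further on. Capitals in the first set mark CACGTG, the E-box letters that factors such as MYC and USF are known to bind, which read the same on both strands. Eif5a is shown because it passed the test, with both matches found in its 6 windows, and Eif4e, Eif4g1 and Eef2 because they are central to cap binding and elongation, with 1 of 2 matches each for Eif4e and Eif4g1. Letters run 5′ to 3′ on the gene's own strand.
Eif5a, chr11:69921443-69921472 (-): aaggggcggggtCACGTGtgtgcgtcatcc
Eif5a, chr11:69920791-69920820 (-): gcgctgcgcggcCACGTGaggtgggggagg
Eif4e, chr3:138527192-138527221 (+): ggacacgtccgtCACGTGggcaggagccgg
Eif4g1, chr16:20672661-20672690 (+): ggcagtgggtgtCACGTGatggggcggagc
Eef2, chr10:81176576-81176605 (+): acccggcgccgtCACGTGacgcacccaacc
Capitals in the next pair mark an unbroken run of C and T that begins with a C at the RefSeq start. Such a run is the mark of 5′ terminal oligopyrimidine (TOP) mRNAs, a class whose translation mTORC1 is known to control.
Eif3f, chr7:108934405-108934434 (+): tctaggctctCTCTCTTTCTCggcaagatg
Eif2s3x, chrX:94212632-94212661 (-): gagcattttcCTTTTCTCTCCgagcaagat

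Libraries held 13673856 to 15583364 counted reads. Summed over 6 cardiomyocyte markers the level was 39264 to 45463 CPM in old and 46933 to 52834 CPM in young hearts, with Myh6 and Actc1 lower and Myl2 higher by edgeR's test. The 5 endothelial markers summed to 661 to 716 CPM in old and 1003 to 1102 CPM in young hearts, with Cdh5 and Pecam1 lower. Leukocyte markers summed to 232 to 431 CPM in old and 209 to 257 CPM in young hearts, with 1 of 5 tested (Ptprc) higher. Fibroblast markers summed to 404 to 994 CPM in old and 609 to 793 CPM in young hearts, with 0 of 4 called. Of 5 erythroid markers 1 (Alas2) was lower. Skeletal muscle markers summed to 3.19 to 4.53 CPM in old and 1.65 to 2.96 CPM in young hearts, with 0 of 2 tested called. Of these, Mylpf was at 1.26 ± 0.51 on the log2 scale (edgeR adjusted p = 0.119) and Myh4 had 0 reads in every library. Neuronal markers summed to 0.567 to 2.82 CPM in old and 0.619 to 0.772 CPM in young hearts, with Syt1 at 0 reads and Tubb3 highest in old 1. Adipocyte markers summed to 0.567 to 3.80 CPM in old and 0.137 to 5.41 CPM in young hearts. The part of cell makeup in the results on translation factors was not tested.

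Translation factors passed the test between the ages no more often than all genes, and those that passed moved both ways. By edgeR's quasi-likelihood test with Benjamini-Hochberg adjustment over 14413 genes, 6 of the 57 members tested passed 0.05, which is 10.5% of them against 15.1% of all genes tested. Eif1, Eif5b and Eef1d were higher in old hearts, 3 of 57 against 8.72% of all genes, and Eif4ebp2, Eif2b1 and Eif5a were lower, 3 of 57 against 6.36% of all genes. At an unadjusted p under 0.05 by the same test there were 19 of the 57 members, against 32.5% of all genes. With 3 libraries per age, a missed threshold does not show that a gene is unchanged. Changes were small. The median absolute log2 fold change was 0.19 over members and 0.32 over all genes, and Eif4ebp2 alone among the 57 members reached 2-fold. The median signed log2 fold change was −0.0015 over members and 0.02 over all genes, with 28 members above 0 and 29 below.

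The 3 old libraries lay wholly above the 3 young ones in 16 members and wholly below them in 8, together 42.1% of members against 37.3% of all genes (18.8% above and 18.4% below). The share called was below the share of all genes called, and the share without overlap was near that of all genes. Of the 3 members not tested, Eif4ebp3, the third of the 4E-binding proteins, had too few reads (0.619 ± 0.616 CPM in old and 0.603 ± 0.183 CPM in young hearts; SD, n = 3 each). Eif4e1b and Eif2c5, the latter annotated as a lincRNA, had no read, which allows up to 3 reads in a library by counting error alone. Levels in the text are CPM, counts scaled to library size with TMM factors, and levels of different genes are compared only by the deposited FPKM, which are per length. Means are given ± SD over 3 libraries, and fold changes as log2 of old over young ± SE.

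**Figure D1:**
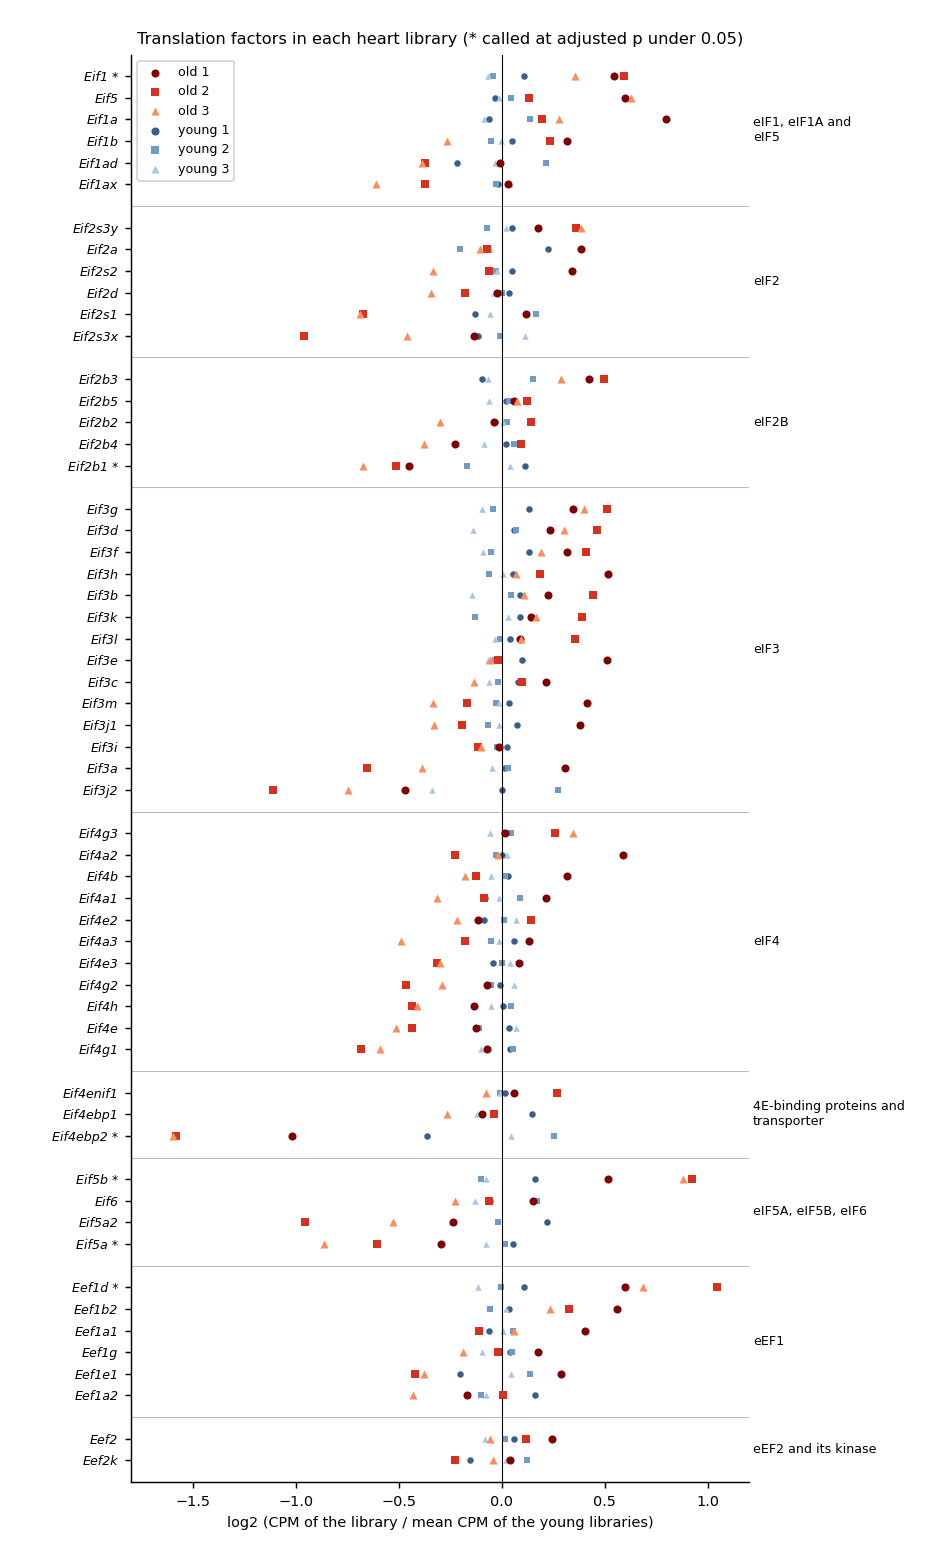
Each line is 1 of the 57 members tested, grouped by class, and each point is 1 library, placed at the log2 ratio of its CPM to the mean of the 3 young libraries (red shades old, blue shades young). Most points lie within 0.5 of 0; Eif4ebp2 stands to the left, and Eif5b and Eef1d to the right.

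**Figure D2:**
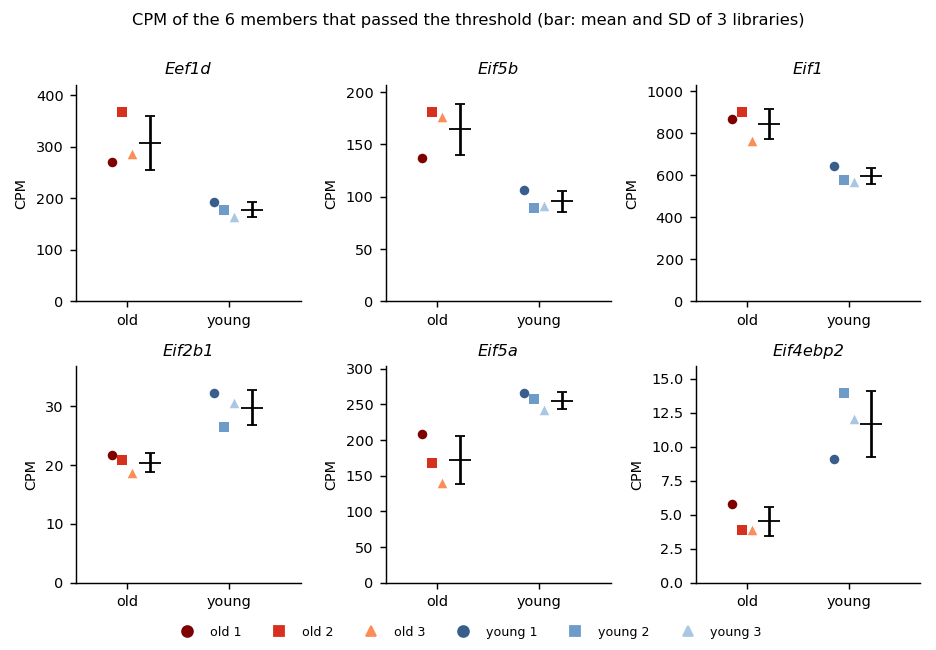
CPM of the 6 members that passed the threshold, with old hearts at left and young hearts at right in each panel, a point per library and a bar for the mean and SD (n = 3). In each panel the 3 old points lie on 1 side of the 3 young points.

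The class that scans for the start codon held the most abundant factor that was higher in old hearts. Eif1, which keeps the scanning ribosome open until it meets a start codon (ENSMUSG00000035530, chromosome 11, 100319885 to 100322096, plus strand), had 871, 902 and 765 CPM in old hearts 1 to 3, against 643, 579 and 569 CPM in young hearts 1 to 3. Every old library exceeded every young one. The log2 fold change was 0.50 ± 0.13, a 1.42-fold level (edgeR adjusted p = 0.0339). It lost the call without old 2 and without young 1, 2 or 3 (edgeR adjusted p = 0.067 to 0.178), and 19.2% of its 50-base windows also occur in transcripts of other genes. Eif5, the GTPase activator that works with eIF2 at the start codon, had 182, 132 and 185 CPM in old hearts 1 to 3, against 117, 124 and 119 CPM in young hearts 1 to 3. The groups did not overlap, old 2 lay nearest to the young hearts, and the difference of 0.47 ± 0.15 missed the threshold (edgeR adjusted p = 0.0688), which it passed without old 1 (0.0449), without old 2 (0.0204) and in DESeq2 (0.0379).

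The other members of the class did not pass. Eif1a, 1 of 2 genes for the scanning factor eIF1A, was at 0.45 ± 0.19 and its X-linked copy Eif1ax at −0.29 ± 0.17 (edgeR adjusted p = 0.128 and 0.251). Eif1ax had 53.1, 40.3 and 34.1 CPM in old hearts 1 to 3, against 51.5, 51.1 and 53.6 CPM in young hearts 1 to 3. Old 1 was at the young level and the other old hearts were below it. Eif1b, the second gene of the Eif1 type, was at 0.12 ± 0.16, and Eif1ad, which is named for its eIF1A domain, at −0.24 ± 0.17. The log2 fold change was above 0 in 4 of the 6 genes, with a median of 0.29.

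Of the eIF2 class none of 6 passed. Its 3 subunits are encoded by Eif2s1 (alpha, the subunit that stress kinases phosphorylate), Eif2s2 (beta) and the X- and Y-linked pair Eif2s3x and Eif2s3y (gamma). The alpha gene Eif2s1 had 37.9, 21.9 and 21.7 CPM in old hearts 1 to 3, against 32.0, 39.2 and 33.6 CPM in young hearts 1 to 3. Old 1 lay within the range of the young hearts, while old 2 and old 3 lay below it. The gamma genes gave values of opposite sign, Eif2s3y at 0.31 ± 0.12 with all old libraries above the young ones and Eif2s3x at −0.48 ± 0.20 with all below (edgeR adjusted p = 0.114 and 0.141). Eif2s2 was at 0.01 ± 0.17. Eif2a and Eif2d, which encode separate factors that can bring tRNA to the ribosome without eIF2, were at 0.09 ± 0.17 and −0.17 ± 0.13.

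The exchange factor eIF2B has 5 subunits, and 1 of them was lower in old hearts. Eif2b1, the alpha subunit that joins the complex into its full decamer and takes part in the sensing of phosphorylated eIF2 (ENSMUSG00000029388, chromosome 5, 124570213 to 124579131, minus strand), had 21.8, 20.9 and 18.6 CPM in old hearts 1 to 3, against 32.2, 26.5 and 30.6 CPM in young hearts 1 to 3. No old library reached a young one. The log2 fold change was −0.54 ± 0.14, a 0.687-fold level (edgeR adjusted p = 0.0297). The call was lost without old 2, old 3, young 1, young 2 or young 3 (edgeR adjusted p = 0.0522 to 0.133). Eif2b3, the gamma subunit, gave a value of the opposite sign, with 18.0, 18.9 and 16.4 CPM in old hearts 1 to 3, against 12.6, 14.9 and 12.8 CPM in young hearts 1 to 3. Its groups did not overlap, but the difference of 0.40 ± 0.15 did not pass (edgeR adjusted p = 0.0925). Eif2b5, the catalytic epsilon subunit, and Eif2b4 (delta) had the highest FPKM of the class, with 18.9 ± 0.593 FPKM in old hearts and 17.8 ± 0.731 FPKM in young hearts for Eif2b5 and 18.4 ± 3.26 FPKM in old hearts and 20.6 ± 1.16 FPKM in young hearts for Eif2b4. They were at 0.09 ± 0.11 and −0.16 ± 0.15, and Eif2b2 (beta) at −0.05 ± 0.14.

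None of the 14 eIF3 genes passed. The log2 fold change was above 0 in 10 of them, with a median of 0.18. In 7 the old libraries lay wholly above the young ones, against 18.8% of all genes, and in 1 wholly below, against 18.4%. Old 1 was the highest of the 6 libraries in 6 of the 14, against 19.1% of all genes. eIF3 is the large scaffold that holds the small subunit and the mRNA. Eif3g, an RNA-binding subunit, had 91.6, 103 and 95.1 CPM in old hearts 1 to 3, against 79.0, 69.9 and 67.5 CPM in young hearts 1 to 3. The groups did not overlap, and the value lay just outside the threshold at 0.42 ± 0.13 (edgeR adjusted p = 0.0516). It passed in DESeq2 (0.0348), with a stricter filter of 1 CPM in 3 libraries (0.0485) and without old 1 (0.00843). Eif3d, the subunit that can bind caps itself, had 52.8, 61.8 and 55.4 CPM in old hearts 1 to 3, against 46.7, 47.1 and 40.8 CPM in young hearts 1 to 3. Here too every old heart was above every young heart (0.34 ± 0.13, edgeR adjusted p = 0.102). The antisense model Gm17638 overlaps its exons and had 3, 17 and 10 reads in old hearts 1 to 3 and 7, 6 and 13 reads in young hearts 1 to 3.

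The other eIF3 genes without overlap and above the young hearts were Eif3b, Eif3f, Eif3h, Eif3k and Eif3l, at 0.18 to 0.31. Eif3h and Eif3k had the highest FPKM of the class, 155 ± 24.4 FPKM in old hearts and 129 ± 5.37 FPKM in young hearts for Eif3h and 140.4 ± 14.8 FPKM in old hearts and 119 ± 9.12 FPKM in young hearts for Eif3k. The largest subunit, Eif3a, had 179, 91.8 and 111 CPM in old hearts 1 to 3, against 146, 147 and 139 CPM in young hearts 1 to 3. Old 1 was the highest of the 6 libraries and old 2 the lowest, so the groups overlapped (−0.18 ± 0.22, edgeR adjusted p = 0.6). Eif3j2, a short copy of Eif3j1, was the 1 eIF3 gene wholly below the young hearts at −0.74 ± 0.28 (edgeR adjusted p = 0.104). Its level is uncertain, since 91.8% of its 50-base windows are shared with other transcripts, nearly all of Eif3j1.

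In the eIF4 class, which binds the cap and unwinds the mRNA, 0 of 11 tested genes passed and 8 had a log2 fold change below 0, with a median of −0.15. Eif4e, which binds the cap itself, had 67.3, 54.2 and 51.3 CPM in old hearts 1 to 3, against 75.0, 67.9 and 77.0 CPM in young hearts 1 to 3. Every old library was below every young one, old 1 by the least (−0.35 ± 0.14, edgeR adjusted p = 0.122). Eif4h, a helper of the helicase, had 141, 114 and 116 CPM in old hearts 1 to 3, against 155, 159.6 and 149 CPM in young hearts 1 to 3. Old 2 and old 3 were nearly equal and old 1 stood nearer to the young hearts (−0.32 ± 0.13, edgeR adjusted p = 0.130). Eif4g2, a scaffold for initiation without cap binding, was the third gene wholly below (−0.27 ± 0.14, edgeR adjusted p = 0.221). These 3 of 11 genes stand against 18.4% of all genes.

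The main scaffold Eif4g1 had 287, 188 and 200.2 CPM in old hearts 1 to 3, against 309.7, 313 and 282 CPM in young hearts 1 to 3. Old 1 fell among the young libraries and the other old hearts were well below them (−0.42 ± 0.18, edgeR adjusted p = 0.130). Without old 1, the differences of Eif4g1 (−0.64), Eif4e (−0.48), Eif4g2 and Eif4h passed at edgeR adjusted p = 0.00148, 0.00560, 0.0213 and 0.00794. That fit called 37.9% of all genes. The helicase gene Eif4a2 had the highest FPKM of the class over all 6 libraries, 65.6 ± 19.7 FPKM in old hearts and 59.1 ± 0.846 FPKM in young hearts, but in young hearts Eif4g2 (62.2 FPKM) and Eif4h (61.2 FPKM) were above it. Its libraries had 495, 281 and 325 CPM in old hearts 1 to 3, against 329.6, 323 and 335 CPM in young hearts 1 to 3. Old 1 alone stood far above the rest, and without it the log2 fold change turned from 0.16 ± 0.20 to −0.12. Eif4a1, the other helicase of initiation, was at −0.05 ± 0.16, with 28.4% of its windows shared with other genes, and Eif4a3, a helicase that belongs to the exon junction complex, at −0.15 ± 0.16.

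The 4E-binding proteins gave the largest change among the members. Eif4ebp2, a repressor that competes with the eIF4G scaffolds for eIF4E (ENSMUSG00000020091, chromosome 10, 61428491 to 61452661, minus strand), had 5.76, 3.90 and 3.86 CPM in old hearts 1 to 3, against 9.07, 13.9 and 12.0 CPM in young hearts 1 to 3. All old libraries were below all young ones, with old 2 and old 3 nearly equal. The log2 fold change was −1.37 ± 0.24, a 0.388-fold level (edgeR adjusted p = 0.00793), and the call stood in each of the 16 alternative settings (−1.59 to −1.09). Eif4ebp1, the main 4E-binding protein of muscle, was at a much higher level by FPKM, with 99.5 ± 8.12 FPKM in old hearts and 109 ± 11.0 FPKM in young hearts, against 2.41 ± 0.559 FPKM in old hearts and 6.27 ± 1.31 FPKM in young hearts for Eif4ebp2. In CPM Eif4ebp1 had 104, 109 and 93.1 CPM in old hearts 1 to 3, against 124, 109 and 103 CPM in young hearts 1 to 3. Its groups overlapped (−0.13 ± 0.13, edgeR adjusted p = 0.531). Eif4enif1, which carries eIF4E into the nucleus, was at 0.09 ± 0.13.

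Of the factors that act at subunit joining and beyond, 1 was higher and 1 lower in old hearts. Eif5b, the GTPase that joins the large subunit (ENSMUSG00000026083, chromosome 1, 37998010 to 38055579, plus strand), had 137, 181 and 176 CPM in old hearts 1 to 3, against 107, 88.9 and 90.7 CPM in young hearts 1 to 3. Old 2 and old 3 were close to each other and old 1 lower, yet above all young hearts. The log2 fold change was 0.78 ± 0.15, a 1.72-fold level (edgeR adjusted p = 0.0117), and it missed the threshold without young 2 or young 3 (0.0751 and 0.0761). Exons of Rev1 on the opposite strand overlap Eif5b by 1643 bases. Rev1 had 194, 152 and 215 reads in old hearts 1 to 3 and 155, 144 and 185 reads in young hearts 1 to 3, and how the counting treated strand is not given in the sources used here.

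Eif5a, which helps the ribosome past difficult peptide bonds once its lysine is turned into hypusine (ENSMUSG00000078812, chromosome 11, 69916714 to 69921958, minus strand), had 208, 167 and 140.3 CPM in old hearts 1 to 3, against 265, 258 and 242 CPM in young hearts 1 to 3. Old 1 was the nearest to the young hearts and old 3 the farthest, without overlap. Old over young came to −0.57 ± 0.16 on the log2 scale, a 0.674-fold level (edgeR adjusted p = 0.0424). It lost the call without old 2, old 3, young 1, young 2 or young 3 (edgeR adjusted p = 0.0882 to 0.149). Its low-level copy Eif5a2 was at −0.54 ± 0.30 (edgeR adjusted p = 0.248). Eif6, which keeps the large subunit apart until it is needed, had 12.7 ± 1.60 FPKM in old hearts and 13.1 ± 1.50 FPKM in young hearts and was at −0.04 ± 0.15.

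Among the elongation factors 1 of 8 tested passed. Eef1d, the delta subunit of the exchange factor of eEF1A (ENSMUSG00000055762, chromosome 15, 75894205 to 75909556, minus strand), had 269, 367 and 286 CPM in old hearts 1 to 3, against 192, 178 and 164 CPM in young hearts 1 to 3. Old 2 was the highest, and every old heart exceeded every young one. At a log2 fold change of 0.79 ± 0.15, a 1.73-fold level, it passed (edgeR adjusted p = 0.0120), and the call was lost without young 1, 2 or 3 (0.0527, 0.0702 and 0.0784). It shares 277 exon bases on the same strand with Naprt. Eef1b2, the catalytic beta subunit of the same exchange factor, had 212, 180.2 and 169 CPM in old hearts 1 to 3, against 147, 138 and 146 CPM in young hearts 1 to 3. The groups did not overlap, and the difference of 0.38 ± 0.13 did not pass (edgeR adjusted p = 0.0832). The third subunit Eef1g was at −0.00 ± 0.14, with 44.2% of its windows shared with other genes. Eef1e1, which sits in the multi-synthetase complex, was at −0.13 ± 0.24.

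The carriers themselves did not pass. Eef1a1 had 1279, 894 and 1006 CPM in old hearts 1 to 3, against 925, 1002 and 968 CPM in young hearts 1 to 3. Old 1 was the highest and old 2 the lowest of the 6, so the groups overlapped (0.14 ± 0.16, edgeR adjusted p = 0.581, and −0.02 without old 1). The muscle form Eef1a2 had 869, 981 and 724 CPM in old hearts 1 to 3, against 1092, 912 and 929 CPM in young hearts 1 to 3. Old 3 was the lowest, while old 2 lay inside the young range (−0.19 ± 0.15, edgeR adjusted p = 0.424). Eef2, the translocase, had the highest mean FPKM of all members, 505 ± 50.1 FPKM in old hearts and 471 ± 26.5 FPKM in young hearts. Over all 6 libraries Eef1a2 came next and then Eef1a1, with 394 ± 60.5 FPKM in old hearts and 450.3 ± 47.1 FPKM in young hearts for Eef1a2 and 406 ± 72.2 FPKM in old hearts and 371 ± 14.8 FPKM in young hearts for Eef1a1. As mean ± SD, Eef1a1 overlapped both others in old hearts, while in young hearts Eef2 and Eef1a2 overlapped and Eef1a1 lay below them. Of the 50-base windows of Eef1a1, 39.4% also occur in transcripts of other genes. Eef2 was at 0.11 ± 0.14 and its inhibitory kinase Eef2k at −0.07 ± 0.13.

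Summed by CPM over a class, the scanning factors of the old hearts stood apart from those of the young hearts, and the other 8 classes overlapped. The genes of eIF1, eIF1A and eIF5 together had 1192, 1145 and 1045 CPM in old hearts 1 to 3, against 877, 825 and 808 CPM in young hearts 1 to 3, a log2 ratio of the means of 0.43, most of it Eif1. The eIF3 genes summed to 1585, 1433 and 1294 CPM in old hearts 1 to 3, against 1351, 1264 and 1240.3 CPM in young hearts 1 to 3. Old 1 and old 2 were above all young hearts and old 3 was among them. The eIF4 genes summed to 2038, 1485 and 1547 CPM in old hearts 1 to 3, against 1858, 1856 and 1850.4 CPM in young hearts 1 to 3. The young sums were nearly equal, while old 1 lay above them and old 2 and old 3 below. The eEF1 genes summed to 2869.6, 2631 and 2372 CPM in old hearts 1 to 3, against 2573, 2449.7 and 2406 CPM in young hearts 1 to 3. In that class the old hearts spread to both sides of the young ones. By FPKM the sums of eIF5A, eIF5B and eIF6 did not overlap either. They were 110.5, 98.4 and 84.9 FPKM in old hearts 1 to 3, against 130.7, 128.1 and 117.7 FPKM in young hearts 1 to 3. Sums are led by their most abundant genes and were not tested.

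**Figure D3:**
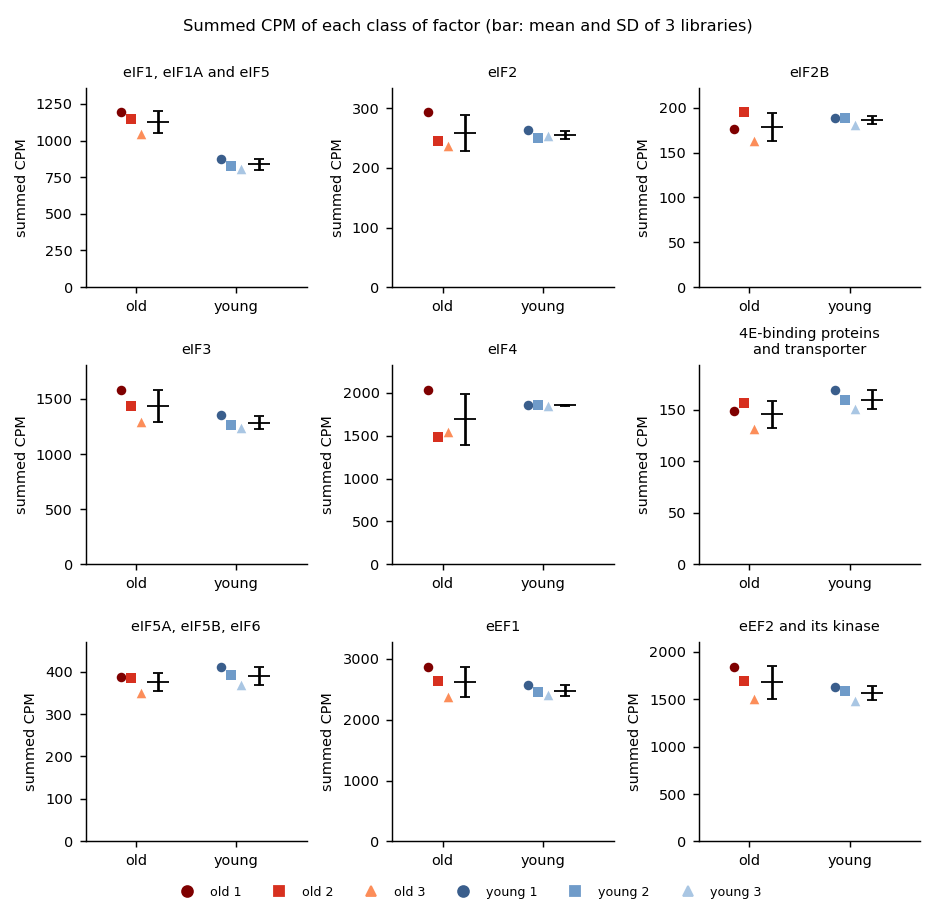
Summed CPM of the tested and untested members of 9 classes, a panel per class, with old hearts at left, young hearts at right, a point per library and a bar for the mean and SD (n = 3). The panel of eIF1, eIF1A and eIF5 has all old points above the young ones, and that of eIF4 has tight young points between split old ones.

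The old hearts differed among themselves in these genes more than the young hearts did. The median SD of log2 CPM over members was 0.22 in old and 0.08 in young hearts, against 0.28 in old and 0.14 in young hearts over all genes. Old 1 was the highest of the 6 libraries in 20 of 57 members (35.1%), against 19.1% of all genes. The median log2 ratio of a member to its young mean was 0.15 in old 1, −0.06 in old 2 and −0.22 in old 3, while over all genes it was within 0.01 of 0 in each. Members took 1.10, 0.966 and 0.827% of all counts in old hearts 1 to 3, against 0.897, 0.875 and 0.876% in young hearts 1 to 3. In old 1, 34 members (59.6%) lay above all young libraries and 12 (21.1%) below them, against 37.2% and 35.1% of all genes. In old 2 these counts were 24 (42.1%) and 27 (47.4%), against 40.2% and 40.3% of all genes. In old 3 they were 18 (31.6%) and 34 (59.6%), against 39.7% and 39.3%.

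The number of calls depended on single libraries. Without old 1, 22 of 57 members passed edgeR's test, 9 higher and 13 lower, which is 38.6% against 37.9% of all genes. The 16 gained were Eef1b2, Eif2s3y, Eif3d, Eif3g, Eif4g3 and Eif5 among those higher, and Eif1ax, Eif2s1, Eif2s3x, Eif3a, Eif3j2, Eif4e, Eif4e3, Eif4g1, Eif4g2 and Eif4h among those lower. Without old 2 and without old 3, 4 members passed each time, against 10.4% and 6.23% of all genes. Without young 1 there were 2, and without young 2 or young 3 there was 1, Eif4ebp2, against 3.63%, 3.65% and 4.18% of all genes. Old 1 also had the highest sums of leukocyte markers (431 CPM, against 267 and 232 CPM in old 2 and old 3) and of fibroblast markers (994 CPM, against 404 and 602 CPM). Most of the leukocyte sum was Lyz2, at 345, 179 and 145 CPM in old hearts 1 to 3, while Ptprc had 18.6, 25.4 and 24.2 CPM and was lowest in old 1. Most of the fibroblast sum was Dcn, at 883, 349 and 522 CPM. Whether these have a part in its translation factors was not tested.

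Several factors exist as gene pairs or trios, and the share of 1 copy was compared in 10 such sets by a two-sided exact permutation test, in which 3 libraries against 3 allow no p under 0.1. In 6 sets the groups did not overlap (exact permutation p = 0.1 each, 0.167 after Benjamini-Hochberg adjustment over the 10). Of all single genes tested, 37.3% were without overlap, and no such share was worked out for other gene sets. A share follows either gene of its set, so it is not separate from the changes of single genes given above. Of the eIF1A counts, the rest being Eif1ax, Eif1a gave 31.3, 28.4 and 33.2% in old hearts 1 to 3, against 20.6, 23.1 and 19.7% in young hearts 1 to 3. All old values were above all young values. Of the eIF2 gamma counts the Y-linked Eif2s3y gave 82.4, 90.4 and 87.2% in old hearts 1 to 3, against 80.9, 78.3 and 78.0% in young hearts 1 to 3. The old values were again the higher ones, old 1 by little. Of the X-linked partner 34.6% of the 50-base windows are shared with the model Gm2223 and none with Eif2s3y.

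Of the counts of Eif4g1, Eif4g2 and Eif4g3, the last gave 8.99, 14.0 and 13.5% in old hearts 1 to 3, against 8.52, 8.81 and 8.23% in young hearts 1 to 3. Old 2 and old 3 were well above the young hearts, old 1 barely so. Eif4ebp1 gave 95.2 ± 1.36% in old hearts and 90.0 ± 2.50% in young hearts (SD, n = 3) of the 4E-binding protein counts. Eif4ebp1 itself was at −0.13 ± 0.13 and was not called, while Eif4ebp2 was lower at −1.37 ± 0.24. Eif1b gave 4.20 ± 0.547% in old hearts and 5.46 ± 0.221% in young hearts of the counts of Eif1 and Eif1b, and Eif3j2 5.48 ± 1.02% in old hearts and 8.69 ± 1.88% in young hearts of its pair, both without overlap and lower in old hearts. Eif1b itself was at 0.12 ± 0.16 and was not called, while Eif1 was higher at 0.50 ± 0.13. The split of the Eif3j pair is uncertain, since 91.8% of the 50-base windows of Eif3j2 are shared, nearly all with Eif3j1. For the muscle carrier Eef1a2 the share was 44.9 ± 6.47% in old hearts and 50.3 ± 3.44% in young hearts. Old 2 lay inside the young range, so the groups overlapped (exact permutation p = 0.3). The difference in the Eef1a2 share was −5.39 percentage points, −9.10 without old 2, where the groups did not overlap (exact permutation p = 0.1), and −3.18 without old 1. The shares of Eif4a2 (70.2 ± 4.10% in old hearts and 67.7 ± 1.61% in young hearts, p = 0.4 by the exact permutation test), Eif4e3 (20.5 ± 1.75% in old hearts and 19.8 ± 0.686% in young hearts, exact permutation p = 0.6) and Eif5a2 (1.15 ± 0.263% in old hearts and 1.12 ± 0.127% in young hearts, exact permutation p = 0.9) overlapped as well. With 1 library left out, the difference ranged from 1.07 to 4.86 percentage points for Eif4a2 and from 0.0316 to 1.74 for Eif4e3, in both lowest without old 1 and highest without old 2. Shares of counts are not corrected for length. By FPKM, which 9 of the sets allow, the groups stayed apart in 5 sets. That of Eif4ebp1 then overlapped, at 96.9 ± 1.17% in old hearts and 93.9 ± 1.60% in young hearts (exact permutation p = 0.2). The FPKM share of Eif1a was 45.0 ± 2.82% in old hearts and 32.8 ± 2.31% in young hearts. The difference between old and young hearts was −2.56 percentage points by FPKM for Eif1b, against −1.26 by counts, and −6.43 for Eif3j2, against −3.21 by counts.

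**Figure D4:**
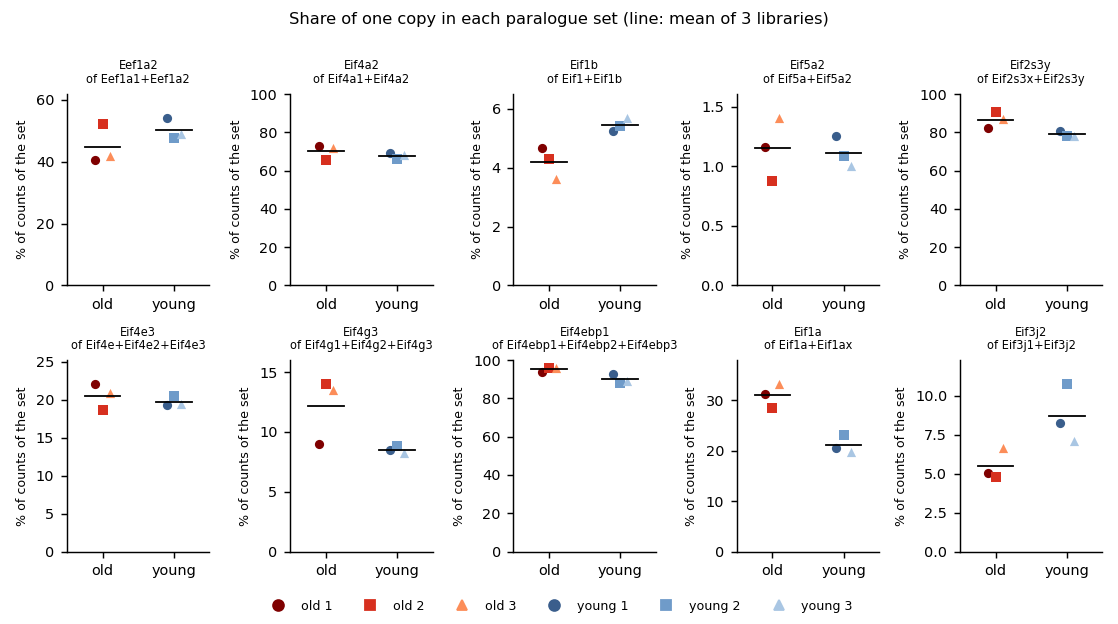
Share of 1 copy in the counts of its set, in percent, a panel per set, with old hearts at left, young hearts at right, a point per library and a line at the mean of 3. Eif1a, Eif2s3y, Eif4g3 and Eif4ebp1 lie higher in old hearts, Eif1b and Eif3j2 lower, and the other 4 sets overlap.

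The members listed as TOP mRNAs had a median above that of the young hearts in each old library. These are Eef1a1, Eef1b2, Eef1d, Eef1g, Eef2, Eif3e, Eif3f, Eif3h and Eif4b, described as such in the literature. Their log2 fold change was above 0 in 8 of 9, 1 (Eef1d) passed and 0 were lower, and the median was 0.17. The other 48 members tested had a median of −0.05, with 20 above 0, 2 higher and 3 lower by the test. The median log2 ratio to the young mean over the 9 was 0.41 in old 1, 0.12 in old 2 and 0.06 in old 3, against 0.08, −0.08 and −0.29 over the other 48. The difference between the list and the other members was not tested, and the list was chosen with earlier results of these data known. At the RefSeq starts, 3 of 46 members (6.52%; Eif3f, Eif2s3x and Eif2c5) held a run of at least 5 pyrimidines led by a C, against 3.12% of 10219 tested genes with a window and 3.01% of all 27025 genes with a window. Of the 3, Eif2c5 is annotated as a lincRNA, had no read and is not among the tested genes. Eif2s3x is not on the list and counts among the other 48. It went the other way, at −0.48 ± 0.20 with all old libraries below the young ones. So few genes do not set the members apart from the other genes. Windows were found for 5 of the listed 9 (Eef1a1, Eef1b2, Eef2, Eif3f and Eif4b). Of these 5, Eif3f held such a run, in the letters printed above, and that says nothing of starts used outside these windows.

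CACGTG was found in the windows of 12 of 46 members (26.1%), against 11.5% of 10219 tested genes and 8.09% of all 27025 genes with a window. The 12 were Eif1b, Eif3a, Eif3f, Eif3k, Eif4a1, Eif4e, Eif4g1, Eif4h, Eif5a, Eif5a2, Eef2 and Eef2k. Of these, 1 (Eif5a, whose letters stand first above) was lower in old hearts and 0 were higher, at a median of −0.13 on the log2 scale, with 4 above 0. The 33 tested members with a window but no match had a median of 0.02, with 2 higher and 2 lower. A match is a run of letters and does not show that a factor binds there.

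The regulators and partners of these factors were described from a list of 57 other genes, all of them tested. Here 4 were higher (against 8.72% of all genes) and 3 lower (against 6.36%) in old hearts. These counts were 8 and 15 without old 1, 2 and 0 without old 3, 1 and 0 without young 1 or young 2, and 1 and 1 without young 3. Of all genes, 37.9%, 6.23%, 3.63%, 3.65% and 4.18% were called in either direction without old 1, old 3, young 1, young 2 and young 3. Without old 2, where 10.4% of all genes were called, Dph3 and Tsfm lost the call. Mknk2 passed in that fit (edgeR adjusted p = 0.0494). Upstream of eIF2, Impact, which restrains the kinase GCN2, had 47.4, 48.9 and 44.5 CPM in old hearts 1 to 3, against 29.0, 28.4 and 28.3 CPM in young hearts 1 to 3. The old and young values were each tightly grouped and far apart (0.72 ± 0.12, edgeR adjusted p = 0.00615). Eif2ak2, the double-stranded RNA-activated kinase PKR, had 28.3, 23.6 and 53.7 CPM in old hearts 1 to 3, against 11.8, 13.8 and 13.3 CPM in young hearts 1 to 3. All old hearts were above the young ones and old 3 stood highest (1.44 ± 0.28, edgeR adjusted p = 0.0117, and 0.0527 to 0.0633 without young 1, 2 or 3). The other eIF2 kinases, Eif2ak1, Eif2ak3 and Eif2ak4, were at −0.19 ± 0.17, −0.10 ± 0.17 and 0.18 ± 0.14 and did not pass.

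In the pathway that makes diphthamide, the modified histidine of eEF2, Dph5 (0.82 ± 0.18, edgeR adjusted p = 0.0174) and Dph3 (0.53 ± 0.13, 0.0245) were higher. The other 4 genes of this pathway that were on the list did not pass. Dph7 was at 0.59 ± 0.19, Dph1 at −0.08 ± 0.37, Dph2 at −0.15 ± 0.23 and Dph6 at −0.36 ± 0.22. Dph3 had 47.1, 58.0 and 50.4 CPM in old hearts 1 to 3, against 35.7, 36.4 and 35.5 CPM in young hearts 1 to 3. The groups did not overlap, as for Dph5. The hypusine enzymes of eIF5A, Dhps and Dohh, were at 0.13 ± 0.13 and 0.00 ± 0.14. Without old 3 or 1 of the young libraries Dph5 and Dph3 lost the call, Dph3 also without old 2 (edgeR adjusted p = 0.0512 to 0.123). None of the 15 genes of mTORC1 and the initiation kinases passed. The eIF4E kinase gene Mknk2 was at −0.49 ± 0.15 (edgeR adjusted p = 0.0518). Deptor, an inhibitory subunit of mTOR complexes, had 11.2, 5.82 and 8.39 CPM in old hearts 1 to 3, against 14.7, 12.8 and 14.3 CPM in young hearts 1 to 3. Its groups did not overlap (−0.71 ± 0.23, edgeR adjusted p = 0.0658), and it passed with no filter (0.0240), in DESeq2 (0.0321), with the replicate block (0.0484) and without old 1 (0.00324). Mtor itself was at 0.31 ± 0.13 (edgeR adjusted p = 0.128). Paip2b, which holds poly(A)-binding protein back, was lower with 24.0, 17.1 and 18.5 CPM in old hearts 1 to 3, against 35.5, 29.2 and 33.4 CPM in young hearts 1 to 3. The groups did not overlap (−0.72 ± 0.16, edgeR adjusted p = 0.0202), and the call was lost without old 3, young 1, young 2 or young 3 (0.0591 to 0.0955). Pabpc1, the main poly(A)-binding protein of the cytoplasm, was wholly below the young hearts at −0.47 ± 0.15 and did not pass (edgeR adjusted p = 0.0582). It passed with upper-quartile factors (0.0475), no filter (0.0422), DESeq2 (0.0256) and without old 1 (0.00129). None of the 6 genes of release and recycling passed. Pelo, which rescues stalled ribosomes, was at 0.31 ± 0.15 and the release factor gene Gspt1 at −0.34 ± 0.19, both overlapping (edgeR adjusted p = 0.186 and 0.234) and both past the threshold without old 1 (0.0216 and 0.00743). The selenocysteine factor Eefsec was at 0.06 ± 0.27.

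Each of the 9 factors of mitochondrial translation had a log2 fold change below 0, with a median of −0.38 and 2 that were lower by the test, against 6.36% of all genes. Mtif3 (−0.01 ± 0.24) and Gfm2 (−0.02 ± 0.12) were close to 0. Their groups overlapped, as did those of Mtif2 (−0.12 ± 0.13) and Mtrf1l (−0.20 ± 0.21). Mrrf (−0.38 ± 0.15) and Mtrf1 (−0.47 ± 0.20) were wholly below the young hearts and did not pass. The 9 factors summed to 386, 385 and 355 CPM in old hearts 1 to 3, against 566, 491 and 484 CPM in young hearts 1 to 3. Gfm1, the mitochondrial counterpart of eEF2, had 73.7, 49.4 and 46.2 CPM in old hearts 1 to 3, against 126, 108 and 97.3 CPM in young hearts 1 to 3. Old 1 was the nearest to the young hearts, without overlap (−0.96 ± 0.19, edgeR adjusted p = 0.0129, lost without old 3, young 1 or young 2 at 0.0541 to 0.0679). Tsfm, which recharges the mitochondrial carrier, had 25.0, 17.8 and 18.1 CPM in old hearts 1 to 3, against 32.8, 30.3 and 30.8 CPM in young hearts 1 to 3. The groups did not overlap (−0.62 ± 0.16, edgeR adjusted p = 0.0306, lost without old 2, old 3 or any young library at 0.0736 to 0.12). The carrier Tufm was wholly below the young hearts and did not pass (−0.42 ± 0.14, edgeR adjusted p = 0.0648). Of the cytosolic counterparts, Eef2 was at 0.11 ± 0.14 and the carriers Eef1a1 and Eef1a2 at 0.14 ± 0.16 and −0.19 ± 0.15. The exchange subunits Eef1b2, Eef1d and Eef1g were at 0.38 ± 0.13, 0.79 ± 0.15 and 0.00 ± 0.14, and the difference between the 2 systems was not tested. Reads of the mitochondrial genome took 18.3 to 27.5% of all counts in old and 25.0 to 26.7% in young hearts. The cardiomyocyte marker sum was lower in each old heart than in any young heart, but its 6 markers moved both ways. Actc1 (−1.23 ± 0.16) and Myh6 (−0.75 ± 0.15) were lower by the test and Myl2 (0.58 ± 0.15) was higher. Ryr2 (−0.61 ± 0.30), Tnnt2 (0.20 ± 0.12) and Tnni3 (0.15 ± 0.16) did not pass. The part of mitochondrial reads and of cell makeup in the mitochondrial factors was not tested.

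**Figure D5:**
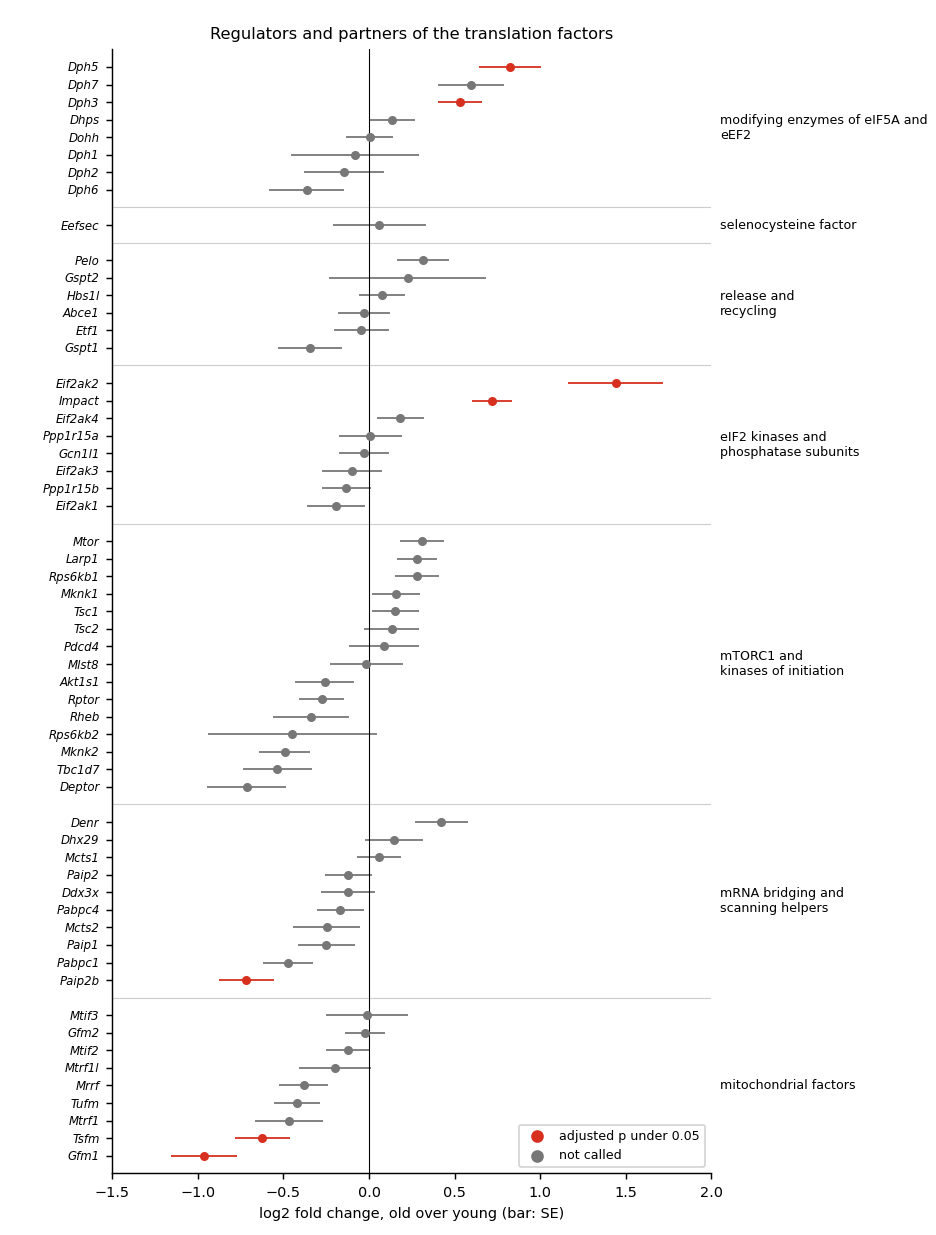
Log2 fold change of old over young for the 57 regulators and partners, 1 line per gene in 7 groups, with a bar for the SE and red for an edgeR adjusted p under 0.05. Impact, Eif2ak2, Dph5 and Dph3 lie right of 0 in red, and Gfm1, Tsfm and Paip2b left of it. All 9 mitochondrial factors lie left of 0, Mtif3 and Gfm2 close to it.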

How the data were processed

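Hearts of 6 mice (3 old, 3 young) were profiled by RNA sequencing. The series text calls the samples of an age independent biological replicates. Reads were aligned with HISAT2 to GRCm38.p6 and counted with featureCounts of Subread, per the submitters' processing notes. Tool versions, the annotation release and the handling of strand and of multi-mapped reads were not given in the sources used here. An extraction text in the labels names NRVMs, which differs from the tissue label. The deposited counts are whole reads per gene and were used as they stand. The authors also deposited FPKM of 13170 genes, including 57 members, which are scaled to depth and length. FPKM per count, with counts scaled to library totals, differed from that of young 1 by up to −9.58% (old 1, median over genes). Unnamed gene models (0.295 to 0.368% of counts) were left out.

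Genes were filtered by filterByExpr, scaled by TMM and tested by quasi-likelihood F tests in edgeR 4.0.16 (R 4.3.3) on all named genes, old against young, with Benjamini-Hochberg adjustment and a threshold of 0.05. The SE is the absolute log2 fold change over the root of F. CPM per library are TMM-scaled. The members, lists, paralogue sets and the naming rule were chosen with earlier results of these data known. The rule named members that passed, paralogue sets, and the 2 genes of each class with the smallest p and the 2 with the highest FPKM, and in the pathway list those that passed and the 2 with the smallest p per group. Other genes were named for completeness after their values were seen. Shared sequence was measured as the percent of 50-base windows of GENCODE M21 transcripts found in another gene. Coordinates are of GRCm38. The method was tested on simulated counts.

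Alternatives were RLE and upper-quartile scaling, no filter, 1 CPM in 3 libraries, DESeq2 1.42.0, limma-voom (limma 3.58.1), limma on log2(FPKM + 1) and log2(FPKM + 0.1), unnamed models included, a block for the replicate number, and leaving out each library in turn. Class sums under other scalings were added after seeing the data.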

Additional observations from a re-analysis of the deposited data

How the results depend on the processing

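The 6 calls among members stood under RLE and upper-quartile factors, no filter, limma-voom, both FPKM fits and with unnamed models included. DESeq2 called 5 members higher, against 3 by edgeR, the gained ones being Eif3g and Eif5. It called 14.0% of members in either direction, against 18.7% of all genes. With 1 library left out, members called ranged from 0 to 9 higher and from 1 to 13 lower, and other pathway genes from 1 to 8 higher and from 0 to 15 lower. The share of all genes called in these fits ranged from 3.63 to 37.9% in either direction. Pathway genes called lower were 6 with upper-quartile factors, 6 with no filter and 7 in DESeq2, against 3. In these settings 15.3%, 11.9% and 18.7% of all genes were called in either direction, against 15.1%. The summed eIF5A, eIF5B and eIF6 log2 ratio was −0.36 by FPKM, against −0.06 by CPM, where Eif5a outweighs Eif5b per length. Upper-quartile factors moved the median of all genes from 0.02 to −0.03.

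No called gene turned its sign. The difference in the share of Eif5a2 (0.0361 percentage points) turned to −0.0921 without old 3 and −0.0207 without young 3, within a leave-one-out range of −0.0921 to 0.171. Uncalled log2 fold changes that turned had leave-one-out ranges of −0.122 to 0.316 (Eif4a2) and −0.0242 to 0.243 (Eef1a1), turned without old 1, −0.262 to 0.123 (Eif3j1), turned without old 2, old 3 and young 1 (0.0698, 0.123 and 0.0232), −0.0061 to 0.166 (Eif4enif1), turned without old 2, −0.200 to 0.0708 (Eif4a1) and −0.167 to 0.0186 (Eif4e2), turned without old 3, −0.144 to 0.0503 (Eif6), turned without old 3 (0.0476) and young 2, and −0.266 to 0.216 (Eefsec), turned without old 2 and young 2 (−0.0706). The cause was not tested.

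With the replicate block, 2 members were higher and 2 lower, 7.02% of members against 12.3% of all genes. Eif1 and Eif2b1 lost the call (edgeR adjusted p = 0.0663 and 0.0538). Deviations from the mean of the age in same-numbered old and young libraries correlated at −0.09, −0.07 and 0.03. No old library correlated best with the young library of its own number. So few libraries cannot settle whether the numbers pair the samples. With 3 libraries per age, p-values rest on few animals, and leaving out a library also removes a residual degree of freedom.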
